A study of Mus musculus with 10 samples.

Results

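Transforming growth factor beta (TGF-β) was given without stem cell factor (SCF) to cultured mouse mast cells, and the cells were compared with cells kept in interleukin 3 (IL-3). The comparison used 4 of the 10 libraries of the series, taken by their titles: 2 libraries of IL-3 alone, 1 library with 1 ng/mL TGF-β and 1 library with 10 ng/mL TGF-β. All were bone marrow-derived mast cells (BMMCs), mast cells grown out of bone marrow in IL-3, from wild-type C57BL/6 mice given as 6 to 8 weeks of age. Cultures spent 6 to 8 weeks in IL-3 before a stimulus of 72 h. The labels give the IL-3 dose as 5 ng/mL in one place and as 10 ng/mL in another, give no time for the IL-3 group, and do not say whether IL-3 stayed in the medium during the stimulus. The 6 other libraries held SCF at 100 ng/mL (n = 2) and SCF with 1 ng/mL (n = 2) or 10 ng/mL TGF-β (n = 2), with no SCF dose given for the combinations. The title of the series names a mucosal mast cell-like program induced by TGF-β and licensed by SCF, so the libraries without SCF address what TGF-β changed in its absence. Each TGF-β dose had 1 library, numbered replicate 2 for 1 ng/mL and replicate 1 for 10 ng/mL, so dose and replicate number cannot be told apart, and both libraries entered as the TGF-β side. The labels do not tie replicate libraries to different cultures or mice, so p-values here reflect only how far same-group libraries spread, which may be technical. With each dose fitted as its own group, the gap between the 2 TGF-β libraries does not enter that spread. It came from the IL-3 libraries and the libraries with SCF.

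TGF-β binds a pair of serine/threonine kinase receptors that phosphorylate SMAD2 and SMAD3, which enter the nucleus with SMAD4. Among their targets are genes that dampen the signal, such as the inhibitory SMAD gene Smad7 and the SMAD corepressor gene Skil. Mast cells store proteases, histamine and serotonin in granules. In the mouse, the mucosal type in gut and airway epithelium is known by the chymases MCPT1 and MCPT2 and by the integrin chain CD103 (Itgae), which pairs with the β7 chain (Itgb7) to bind E-cadherin. The connective tissue type is known by the chymases CMA1 and MCPT4, the tryptases and carboxypeptidase A3. IL-3 keeps cultured mast cells alive through the β common receptor chain and STAT5.

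Counts assigned to genes ranged from 1237382 to 1942679 in these 4 libraries, 16.4% to 23.0% of all counted reads or alignments, and 42.7% to 55.6% were not uniquely aligned. In CPM (gene counts scaled to a common library size), 3 counts were worth 1.54 to 2.42. The Pearson correlation of log CPM across genes was 0.955 between the IL-3 libraries, 0.940 between the TGF-β libraries and 0.916 to 0.934 across the groups. Genes are not independent replicates, so these values describe the libraries only. The labelled cell type was checked on its markers: Kit stood at 3677 to 5072 CPM and Fcer1a, the α chain of the IgE receptor, at 6712 to 10479 CPM. Of 13 neutrophil markers 7 were at 0 in all of them, Elane, Mpo, S100a8 and S100a9 among them, as were Cd3e and Cd79a of lymphocytes, Prg2 and Epx of eosinophils, and C1qb and C1qc of macrophages. Other markers were present: Apoe, of the macrophage list, stood at 160 to 314 CPM, and the erythroid and platelet markers summed to 1332 to 1758 CPM, of which Itga2b made 1315 to 1727 CPM. Library values below are CPM after scaling to the libraries' composition, in the order IL-3 replicate 1, IL-3 replicate 2, 1 ng/mL and 10 ng/mL TGF-β. Changes are log2 fold changes, TGF-β minus IL-3, ± standard error. Tests are edgeR's quasi-likelihood test, and each adjusted p is by Benjamini and Hochberg's method. Intervals and count floors cover counting error only, since amplified reads are not separate molecules.

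Of 11247 genes tested, 391 (3.48%) differed at an adjusted p under 0.05, 153 higher (1.36%) and 238 lower (2.12%) with TGF-β. At least a 2-fold change was fitted for 92 of the higher and 136 of the lower genes. Both TGF-β libraries lay beyond both IL-3 libraries in 390 of the 391. Over all genes tested, 21.9% had both TGF-β libraries above both IL-3 libraries and 22.1% had both below, so a lack of overlap alone separates little. The median change of all genes was -0.02. The count rests on every library. Without IL-3 replicate 1 the fit called 183 genes, without IL-3 replicate 2 it called 256, without the 1 ng/mL library 245 and without the 10 ng/mL library 144. In each of these fits 89 of the 391 genes passed, 40 higher and 49 lower. A gene named below passed in all 4 of these fits unless its losses are given. In bulk RNA, fewer cells of a type and less RNA per cell cannot be told apart. Counts of list members given below stand beside the 3.48% of all genes tested.

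**Figure D1:**
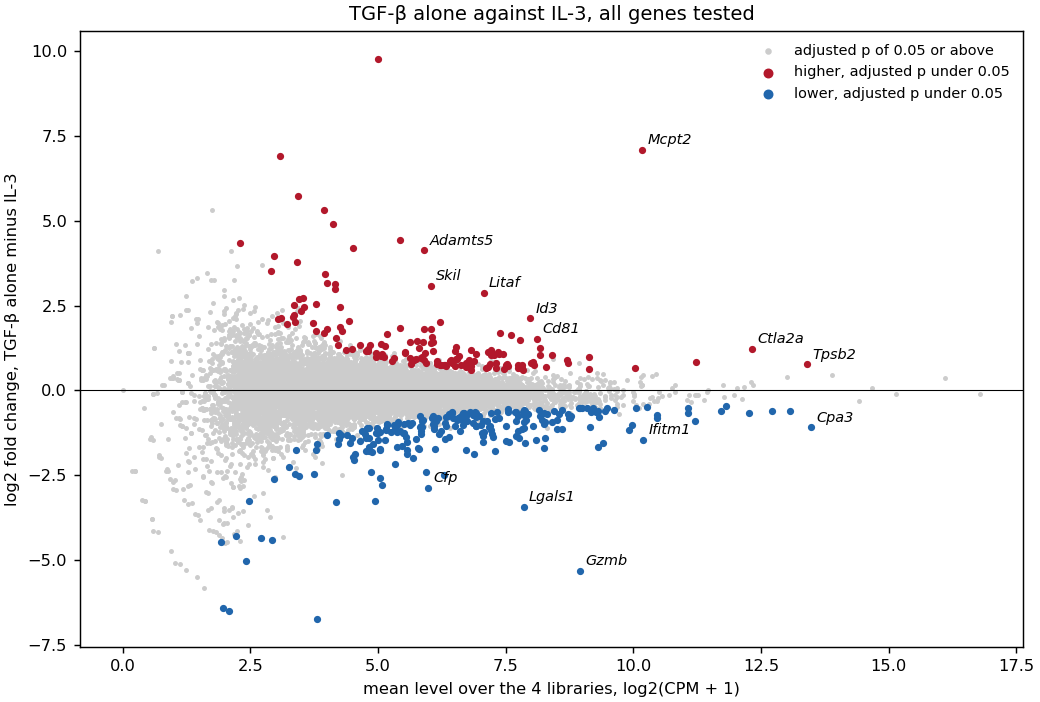
Log2 fold change of TGF-β alone minus IL-3 (vertical axis) against the mean level over the 4 libraries as log2(CPM + 1) (horizontal axis), 1 point per gene for the 11247 genes tested. Red points are the 153 genes past the test that were higher with TGF-β and blue points the 238 that were lower; Mcpt2 and Gzmb lie at 7.08 and -5.30, and fitted changes of genes with few counts, at the left, depend on the fit's prior.

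Of the TGF-β target genes, 4 rose. Skil stood at 11.9, 15.4, 102 and 128 CPM, a change of 3.08 ± 0.22 (adjusted p = 2.7e-07). Smad7 stood at 2.59, 4.91, 23.8 and 35.8 CPM (2.99 ± 0.42, adjusted p = 0.00037). Ldlrad4, whose product keeps SMADs from the receptor, stood at 2.07, 4.91, 36.5 and 24.1 CPM (3.14 ± 0.49, adjusted p = 0.0011). In these genes both TGF-β libraries were above both IL-3 libraries, and neither TGF-β library was the higher in all 3. Id3, an inhibitor of helix-loop-helix transcription factors, went from 72.6 and 116 to 351 and 467 CPM (2.12 ± 0.30, adjusted p = 0.00037). Its relative Id2 stood at 460, 510, 481 and 512 CPM, with overlapping groups and a change of 0.03 ± 0.13 (adjusted p = 0.94).

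Of 21 tested feedback and target genes, 4 rose, 2 fell and 15 did not pass, with a median change of 0.16 against -0.02 for all genes. The 4 that rose did so in each fit leaving out a library. The 2 that fell were Cdkn1a, the cell cycle inhibitor p21 that TGF-β induces in many cells (-0.70 ± 0.13, adjusted p = 0.0050), and Ahr, the aryl hydrocarbon receptor (-1.21 ± 0.29, adjusted p = 0.026). Cdkn1a did not pass without the 10 ng/mL library (adjusted p = 0.092). Ahr did not pass without either IL-3 library or the 10 ng/mL library (0.067 to 0.28). Among 17 tested ligands, receptors and SMADs none rose and 2 fell. Furin, the convertase that cleaves the TGF-β precursor, stood at 1370, 1300, 702 and 617 CPM (-1.02 ± 0.13, adjusted p = 0.00024). Tgfbr2, the receptor chain that binds the ligand, stood at 224, 272, 205 and 122 CPM (-0.65 ± 0.15, adjusted p = 0.025), and did not pass without IL-3 replicate 2 (0.18) or the 10 ng/mL library (0.60). Its value at 1 ng/mL was close to that of IL-3 replicate 1. The signalling SMAD genes Smad2 (-0.02) and Smad3 (0.41) and the receptor gene Tgfbr1 (0.29) did not pass the test.

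**Figure D2:**
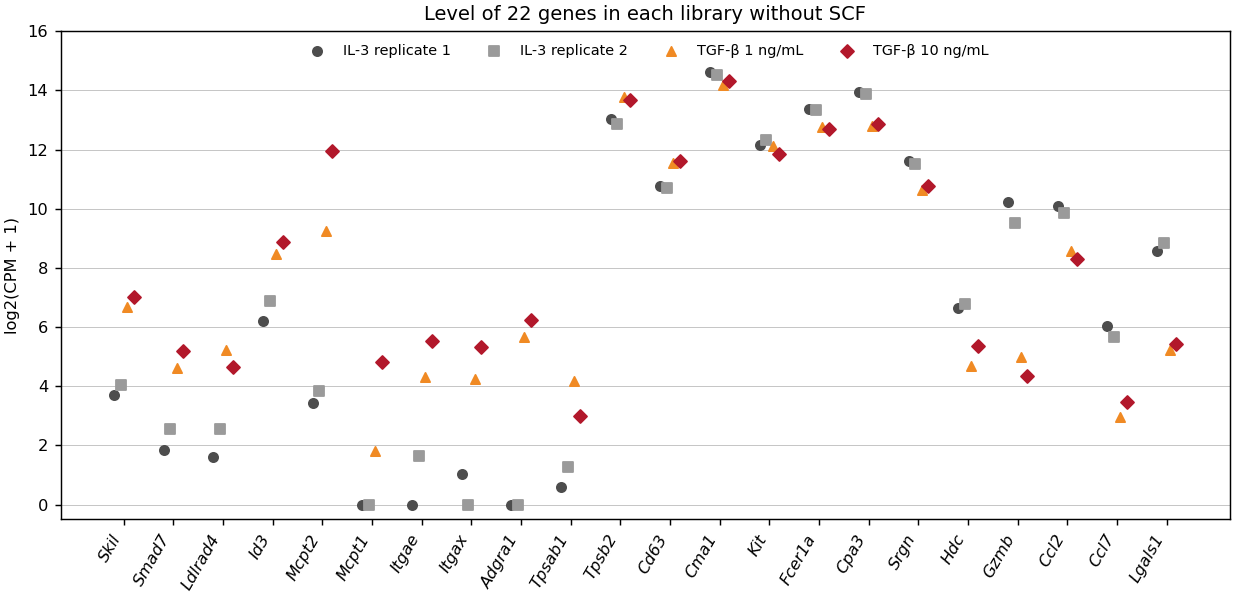
Level of 22 genes as log2(CPM + 1) (vertical axis) in each of the 4 libraries: grey circles and squares for the IL-3 libraries, orange triangles for 1 ng/mL and red diamonds for 10 ng/mL TGF-β. Mcpt2 lies far above its IL-3 level at both doses and is higher at 10 ng/mL, Gzmb lies far below it, and Cma1 and Kit lie close together in all 4.

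The mucosal chymase gene Mcpt2 rose by far more than the TGF-β targets. It stood at 9.85, 13.3, 604 and 3979 CPM (7.08 ± 0.28, adjusted p = 8.4e-11). Both TGF-β libraries were far above IL-3, and the 10 ng/mL library was the higher of the pair. With 1 library per dose this gap was not tested, and it does not enter the standard error. Mcpt1 had 0 counts in both IL-3 libraries and 3 and 35 counts with TGF-β, or 2.55 and 27.2 CPM (adjusted p = 0.042). Its pooled level was 17.4-fold over a floor of 3 counts in the IL-3 group, and the lower 95% counting limit of its ratio was 13.5. At 1 ng/mL it stood at the floor, and its call was lost without either IL-3 library (0.19 and 0.14) or the 10 ng/mL library (0.37). Itgae had 0 and 2.11 CPM in IL-3 and 18.7 and 45.1 CPM with TGF-β. From 3 counts in IL-3 the pooled ratio was 36.7 (95% counting interval 12.1 to 182, adjusted p = 0.0018), and the call was lost without IL-3 replicate 1 (0.061). Its partner chain Itgb7 stood at 625, 800, 824 and 348 CPM, with overlapping groups (-0.41 ± 0.14, adjusted p = 0.14). The 1 ng/mL library was the highest of the 4 and the 10 ng/mL library the lowest, and without the latter the change was 0.21. Without the 1 ng/mL library the fall of Itgb7 passed the test (adjusted p = 0.0047). Mcpt9 had 0 counts in all 4 libraries. Thus 3 of 4 tested mucosal genes rose, but only 1, 2, 3 and 2 of them in the fits without IL-3 replicate 1, IL-3 replicate 2, 1 ng/mL and 10 ng/mL. By limma-voom on all libraries Mcpt2 passed, and Mcpt1 (adjusted p = 0.15) and Itgae (0.11) did not.

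The connective tissue genes moved both ways, 2 rising and 1 falling among 11 tested, with a median of 0.23 that was -0.01 without the 1 ng/mL library. The tryptase gene Tpsb2 stood at 8416, 7488, 14165 and 13172 CPM (0.78 ± 0.13, adjusted p = 0.0018). Its neighbour Tpsab1 had 3 counts in IL-3 in all and stood at 17.0 and 6.99 CPM with TGF-β. The pooled ratio was 13.3 (95% counting interval 4.12 to 68.2, adjusted p = 0.0056), and the call was lost without IL-3 replicate 1 (0.10), without the 1 ng/mL library (0.098) and by limma-voom (0.065). Cpa3, the gene of carboxypeptidase A3, stood at 15870, 15241, 7174 and 7514 CPM (-1.08 ± 0.12, adjusted p = 3.5e-05). The chymase Cma1 stood at 25335, 23433, 18619 and 20426 CPM (-0.32 ± 0.14, adjusted p = 0.26). Mcpt4 was low at 1.56, 2.81, 5.09 and 7.77 CPM (1.55 ± 0.74, adjusted p = 0.32), with both TGF-β libraries above both IL-3 libraries. The chymases and the 2 tryptases are close paralogs whose shared reads may be lost or misassigned, which leaves their levels uncertain. Per kilobase of exon, mean levels (CPM per kilobase, here RPKM) gave the order of the proteases. In IL-3, Cma1 at 22371 led Cpa3 at 10254, Tpsb2 at 4989, Gzmb at 670 and Mcpt2 at 10.9. With TGF-β, Cma1 at 17911 led Tpsb2 at 8575, Cpa3 at 4841, Mcpt2 at 2160 and Gzmb at 17.4. The Mcpt2 mean joins unequal libraries, 604 and 3979 CPM, so leaving out either moves it by more than 1.5 times.

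The chymases and the granzyme B gene Gzmb lie in 1 cluster on chromosome 14 of GRCm38, Mcpt1 at 56017971 to 56020384, Mcpt2 at 56042041 to 56044642 and Gzmb at 56258838 to 56262260. Gzmb, whose product is a granule protease of killer lymphocytes and mast cells, fell where Mcpt1 and Mcpt2 rose, from 1193 and 730 CPM in IL-3 to 30.6 and 19.4 CPM with TGF-β (-5.30 ± 0.27, adjusted p = 2.6e-09). To show what lies in front of members of the cluster that rose, did not pass and fell, the 250 bases before the RefSeq starts (GRCm38.p6) of Mcpt1 (chr14:56017714-56017963, plus strand), Mcpt4 (chr14:56062311-56062560, minus strand) and Gzmb (chr14:56262335-56262584, minus strand) are printed 5′ to 3′. They were chosen after comparing 5 genes of the cluster.
Mcpt1: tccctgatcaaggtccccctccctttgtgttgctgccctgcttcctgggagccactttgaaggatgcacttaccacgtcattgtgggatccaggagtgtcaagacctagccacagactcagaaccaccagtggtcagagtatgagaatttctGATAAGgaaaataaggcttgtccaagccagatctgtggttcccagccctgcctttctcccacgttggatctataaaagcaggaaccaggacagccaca
Mcpt4: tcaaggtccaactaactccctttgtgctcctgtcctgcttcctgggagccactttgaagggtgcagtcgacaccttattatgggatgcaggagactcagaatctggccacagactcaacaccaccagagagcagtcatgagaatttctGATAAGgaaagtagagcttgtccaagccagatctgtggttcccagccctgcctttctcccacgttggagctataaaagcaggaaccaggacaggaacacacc
Gzmb: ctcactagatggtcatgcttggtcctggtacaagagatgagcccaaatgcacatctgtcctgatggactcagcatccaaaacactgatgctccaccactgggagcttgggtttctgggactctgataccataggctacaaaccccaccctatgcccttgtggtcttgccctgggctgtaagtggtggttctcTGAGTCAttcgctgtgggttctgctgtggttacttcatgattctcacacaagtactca
The capitals mark GATAAG, a form of the GATA factor motif, in Mcpt1 and Mcpt4, and a match to the AP-1 motif TGANTCA in Gzmb. Mcpt1 passed the test in the fit on all 10 libraries, but was lost in 3 of the 4 fits leaving out a library. Mcpt4 did not pass, on 7 counts in IL-3 and 16 with TGF-β, although its change was upward (1.55 ± 0.74). Whether the 2 genes changed differently was not tested. Their promoters were identical in 213 of 260 alignment columns (81.9%). The 9 other pairs among these genes, Mcpt9 and Cma1 were 48.5% to 54.1% identical. The 4 motifs searched on both strands were GTCTAGAC and the shorter CAGACA, both known as SMAD elements, TGANTCA, and GATAAG, which was added after the sequences were read. They do not contain one another. Of all 32851 promoters in the table, 0.167% held GTCTAGAC, 17.1% CAGACA, 6.75% TGANTCA and 6.55% GATAAG. Among promoters of tested genes that were higher with TGF-β the shares were 0%, 19.7%, 9.55% and 5.10%, and among those lower 0%, 15.2%, 6.28% and 4.93%. For all tested genes they were 0.205%, 13.2%, 4.28% and 4.64%. A match is a string of letters and not a bound site.

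Genes that define the mast cell were lower or did not pass: of 16 tested identity genes none rose and 5 fell, with a median of -0.30. Fcer1a stood at 10479, 10385, 6900 and 6712 CPM (-0.62 ± 0.11, adjusted p = 0.0039). Hdc, which makes histamine, stood at 98.5, 110, 24.6 and 39.6 CPM (-1.73 ± 0.25, adjusted p = 0.00050). In both genes the 2 groups lay apart. For Fcer1a the libraries of each group lay close together, while the TGF-β libraries of Hdc differed, at 29 and 51 counts. The transporter gene Slc45a3 (-0.91 ± 0.15) and the adenosine receptor gene Adora3 (-0.78 ± 0.18) fell with Cpa3. Slc45a3 was lost without 10 ng/mL (adjusted p = 0.054), and Adora3 without IL-3 replicate 1, 1 ng/mL or 10 ng/mL (0.059 to 0.21). The transcription factor genes Gata2 (-0.28), Gata1 (-0.25) and Mitf (-0.26) and the receptor genes Kit (-0.25 ± 0.12, adjusted p = 0.31) and Il1rl1 (-0.28) did not pass. The fits leaving out a library called 4, 5, 4 and 3 identity genes lower, in the library order above.

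Of 27 tested IgE receptor signalling genes 3 fell: Fcer1a, the adaptor gene Lat2 (-0.52 ± 0.12, adjusted p = 0.022) and the kinase gene Tec (-1.11 ± 0.28, adjusted p = 0.033). Lat2 was lost without either IL-3 library or 10 ng/mL (0.053 to 0.21) and Tec in all 4 fits (0.071 to 0.20). The other receptor chains Fcer1g (-0.41) and Ms4a2 (-0.05) and the kinases Lyn (0.07) and Syk (0.25) did not pass. Each fit leaving out a library called members lower, and the fit without IL-3 replicate 1 also called a member higher. Of 23 tested exocytosis genes only Rab44 fell (-0.52 ± 0.13, adjusted p = 0.040), and no fit leaving out a library called it (0.069 to 0.30).

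Granule and amine genes fell more often than they rose, 6 against 2 of 23 tested, with a median of -0.24. Besides Gzmb and Hdc, the granule proteoglycan gene Srgn fell from 3146 and 2953 to 1574 and 1731 CPM (-0.89 ± 0.11, adjusted p = 0.00019). Tph1, which makes serotonin's precursor, fell from 5969 and 6033 to 3873 and 3686 CPM (-0.67 ± 0.11, adjusted p = 0.0018). The granule membrane gene Cd63 rose from 1751 and 1651 to 2979 and 3142 CPM (0.85 ± 0.11, adjusted p = 0.00031). These 3 genes showed groups set apart by several times the gap between replicates. The serpin gene Serpinb1a (-0.73 ± 0.13) was lost without IL-3 replicate 2 (adjusted p = 0.071) or 10 ng/mL (0.19). Lamp1 (-1.48 ± 0.35, adjusted p = 0.025) and the amine-forming decarboxylase Ddc (1.23 ± 0.29, adjusted p = 0.024) were each lost in all 4 fits. Without a library the fits called 5, 4, 5 and 4 members lower and 1 higher. Among eicosanoid genes 1 of 13 rose and 1 fell. Alox5ap, the helper of 5-lipoxygenase, stood at 814, 800, 1209 and 1343 CPM (0.66 ± 0.14, adjusted p = 0.012), and the prostaglandin receptor gene Ptger3 at 275, 276, 217 and 145 CPM (-0.63 ± 0.14, adjusted p = 0.019). Both were lost without either IL-3 library or 10 ng/mL, with adjusted p of 0.081 to 0.11 for Alox5ap and 0.082 to 0.45 for Ptger3.

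Cytokine and chemokine genes held the lowest median of the lists of mast cell genes: 7 of 16 tested members fell, none rose and the median was -1.05. The monocyte chemoattractant Ccl2 stood at 1094, 932, 381 and 316 CPM (-1.55 ± 0.14, adjusted p = 5.5e-06). Ccl7 stood at 64.3, 49.8, 6.79 and 10.1 CPM (-2.79 ± 0.31, adjusted p = 4.6e-05). Oncostatin M, Osm, stood at 309, 248, 79.8 and 117 CPM (-1.53 ± 0.23, adjusted p = 0.00076). All 3 were low in both TGF-β libraries. The calls of the 4 other genes were each lost in at least 1 fit, although both TGF-β libraries lay below both IL-3 libraries. Lif (-1.79 ± 0.34) was lost without IL-3 replicate 1 (adjusted p = 0.11) or 10 ng/mL (0.082), and Ccl4 (-2.47 ± 0.50) without 1 ng/mL (0.063) or 10 ng/mL (0.073). Tnfsf14 (-1.65 ± 0.25) was lost without 10 ng/mL (0.082). Tnf stood at 43.5, 23.9, 4.24 and 16.3 CPM (-2.04 ± 0.45, adjusted p = 0.014) and was lost without IL-3 replicate 1 (0.20) or 1 ng/mL (0.31). The fits leaving out a library called 5, 7, 5 and 4 members lower. Il6 (0.19), Il4 (-0.27) and Ccl3 (-0.44) did not pass, and Il3, Il5, Il9 and Il10 were at 0 in all 4 libraries.

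Receptor genes for cytokines fell in 3 of 25 cases. Among them were the receptor β chain genes Csf2rb2, at 7851, 8269, 5873 and 4781 CPM (-0.60 ± 0.11, adjusted p = 0.0046), and Csf2rb (-0.45 ± 0.11, adjusted p = 0.032). Both are close paralogs whose reads may not be separable. The TSLP receptor gene Crlf2 (-0.64 ± 0.16, adjusted p = 0.032) was the other. Csf2rb2 was lost without 10 ng/mL (0.14), Csf2rb without either IL-3 library or 10 ng/mL (0.060 to 0.32) and Crlf2 in all 4 fits (0.087 to 0.18). The fits called 1, 1, 3 and 0 members lower. Of 22 STAT5 target and survival genes 3 fell and 2 rose: Osm, Socs1 (-0.95 ± 0.19, adjusted p = 0.0092) and the survival kinase gene Pim2 (-1.19 ± 0.28, adjusted p = 0.025) were lower, and the repressor gene Bcl6 (2.21 ± 0.53, adjusted p = 0.027) and the death gene Bcl2l11 (1.88 ± 0.50, adjusted p = 0.046) higher. Pim2, Bcl6 and Bcl2l11 were lost in all 4 fits (0.054 to 0.32) and Socs1 without either IL-3 library or 10 ng/mL (0.051 to 0.19).

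Of 30 immune G protein-coupled and inhibitory receptor genes 6 fell and 1 rose, with a median of -0.32. The chemokine receptor gene Ccr1 fell from 57.5 and 87.0 to 23.8 and 16.3 CPM (-1.85 ± 0.26, adjusted p = 0.00036). The adenosine receptor gene Adora2b fell from 68.9 and 85.6 to 32.2 and 24.9 CPM (-1.44 ± 0.24, adjusted p = 0.0018), and was lost without 10 ng/mL (0.051). The complement receptor C5ar1 held 26 counts in IL-3 and 1 with TGF-β, a pooled ratio of 18.9-fold lower (95% counting interval 3.11 to 775, adjusted p = 0.040). The purinergic receptor gene P2ry1 rose (0.76 ± 0.18, adjusted p = 0.027). C5ar1 and P2ry1 were lost in all 4 fits, and the inhibitory receptor gene Pirb (-0.61 ± 0.16, adjusted p = 0.040) in 3, all but the one without IL-3 replicate 1 (0.059 to 0.34). Cd200r1, called in none of these fits, and Adora3 completed the falls. The fits leaving out a library called 3, 4, 3 and 1 members lower and none higher.

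**Figure D3:**
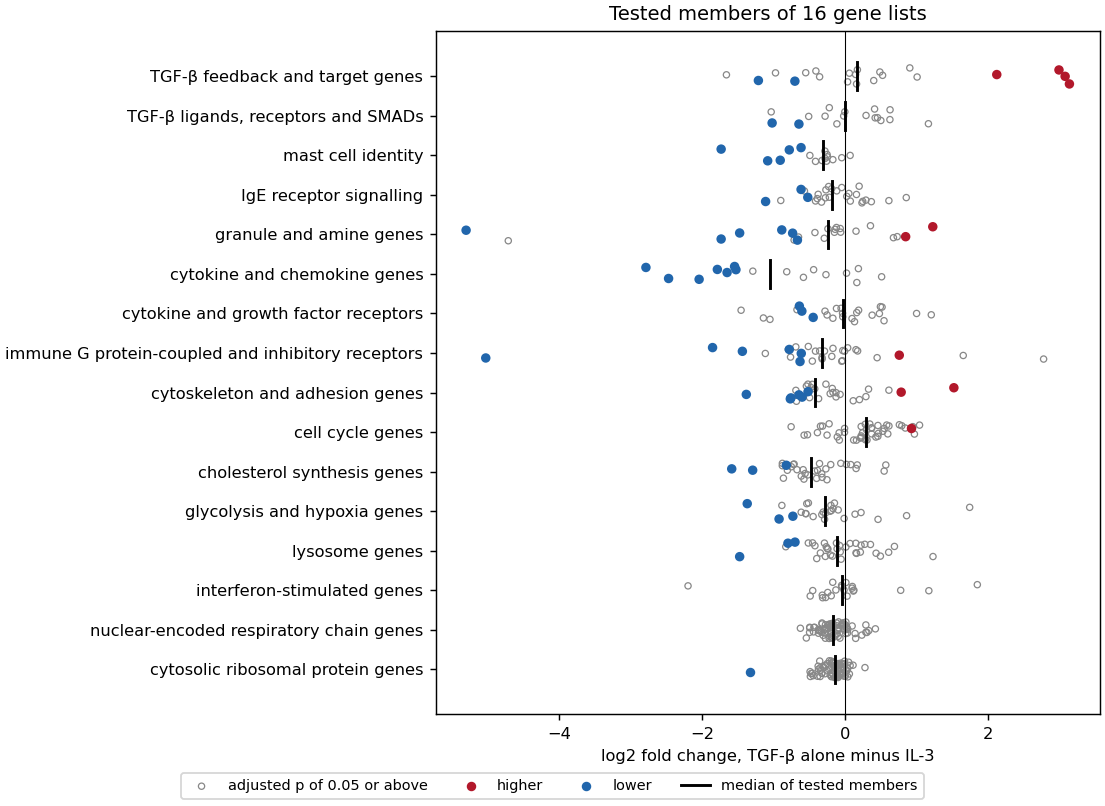
Log2 fold change of TGF-β alone minus IL-3 (horizontal axis) for each tested member of 16 gene lists (rows, points spread vertically for legibility). Filled red and blue points passed the test as higher or lower, open grey points did not, and black bars are medians over the tested members, which lie at -1.05 for cytokine genes and 0.29 for cell cycle genes.

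Adhesion genes included the second integrin α chain to rise. Itgax, CD11c, had 2 counts in IL-3 and stood at 17.8 and 38.9 CPM with TGF-β, a pooled ratio of 48.8 (95% counting interval 13.0 to 411, adjusted p = 0.00036). Itgb2, which pairs with it, stood at 103, 64.6, 20.4 and 32.6 CPM (-1.72 ± 0.34, adjusted p = 0.0075), and was lost without IL-3 replicate 1 (0.14) or 1 ng/mL (0.11). Of 13 tested integrins 2 rose and 1 fell. Itgax was also the only one of 2 tested dendritic cell markers past the test. The summed level of the 13 dendritic cell markers, Itgax included, was 17.6 and 11.2 CPM in IL-3 and 31.4 and 50.5 CPM with TGF-β. Itgax itself made 1.04 and 0 CPM of the sum in IL-3 and 17.8 and 38.9 CPM with TGF-β. Xcr1, Siglech, Ccr7 and Batf3 were at 0 in all 4 libraries. The part of such cells in the rise was not tested.

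Cytoskeleton and adhesion genes fell in 6 and rose in 2 of 31 cases, with a median of -0.42. The tetraspanin gene Cd81 rose from 173 and 110 to 376 and 444 CPM (1.52 ± 0.23, adjusted p = 0.00072), and Cd44, the hyaluronan receptor, from 93.3 and 120 to 184 and 181 CPM (0.78 ± 0.17, adjusted p = 0.012). The intermediate filament gene Vim fell from 206 and 232 to 92.5 and 76.2 CPM (-1.38 ± 0.26, adjusted p = 0.0049), and the selectin ligand gene Selplg from 144 and 159 to 97.6 and 80.8 CPM (-0.77 ± 0.16, adjusted p = 0.013). The lamin gene Lmna (-0.76 ± 0.16) and the actin-binding gene Pfn1 (-0.60 ± 0.14) fell as well, with Cnn2 and Lcp1, which no fit leaving out a library called. Cd81 was called in each fit. Cd44 was lost without IL-3 replicate 1 (0.16) or 10 ng/mL (0.068), Vim without 10 ng/mL (0.083), Selplg without IL-3 replicate 2 (0.086) or 10 ng/mL (0.17), and Lmna and Pfn1 in 3 fits each (0.063 to 0.19). The fits called 4, 2, 2 and 0 members lower.

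Of matrix genes 15.4% and of glycan transfer genes 13% passed, against 3.48% of all genes tested. The galectin gene Lgals1 stood at 384, 456, 36.5 and 42.0 CPM (-3.42 ± 0.22, adjusted p = 7.1e-08). The proteoglycan-cleaving protease gene Adamts1 stood at 1.56, 0.702, 23.8 and 12.4 CPM (3.78 ± 0.60, adjusted p = 0.0012). They were the only fall and rise among 13 tested matrix genes. Fut8, which adds core fucose to N-glycans, fell from 358 and 266 to 106 and 131 CPM (-1.41 ± 0.21, adjusted p = 0.00054). With Galnt6 (-1.65 ± 0.28), lost without 1 ng/mL (0.16), and B4galnt1 (-1.17 ± 0.28), lost in all 4 fits (0.066 to 0.23), it made 3 of 23 glycan transfer genes lower.

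Growth and metabolism lists differed in how many members passed. Of 44 cell cycle genes 1 rose, the DNA replication gene Gins2 (0.92 ± 0.16, adjusted p = 0.0031), which was lost without IL-3 replicate 1 (0.055). The list's median was 0.29 and turned with single libraries: it was 1.28 without IL-3 replicate 1, -0.09 without IL-3 replicate 2, 0.88 without 1 ng/mL and -0.22 without 10 ng/mL, with 5, 1, 4 and 1 members called higher. When TGF-β was added to SCF, 31 of the 44 were higher, beside 441 of all 11247 genes tested. Of 23 G1 regulators the cyclin gene Ccnd2 fell (-0.82 ± 0.15, adjusted p = 0.0039), lost without 10 ng/mL (0.18), beside Cdkn1a. Of 38 transcription factors of mast cells and myeloid cells, Spi1, which encodes PU.1, fell (-1.20 ± 0.27, adjusted p = 0.018) beside Ahr, and was lost without IL-3 replicate 1 (0.15) or 10 ng/mL (0.37). None of 26 MAPK feedback and immediate early genes, 77 respiratory chain genes or 22 interferon-stimulated genes passed, although 6, 8 and 3 of them had an unadjusted p under 0.05. Over all genes 15.6% did so. The interferon list did not hold Ifitm1, Ifitm2 and Ifitm3, which fell and are given below.

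Of 32 cholesterol synthesis genes 3 fell, with a median of -0.47. Squalene epoxidase, Sqle, stood at 108, 97.5, 37.3 and 47.4 CPM (-1.29 ± 0.18, adjusted p = 0.00031). It was the only one of the 3 called in each fit leaving out a library. The list's median stood at -0.18 without IL-3 replicate 1. Of 26 glycolysis and hypoxia genes 3 fell: the glucose transporter gene Slc2a3 from 116 and 124 to 49.2 and 43.5 CPM (-1.37 ± 0.17, adjusted p = 0.00018), the pyruvate kinase gene Pkm from 418 and 465 to 234 and 231 CPM (-0.92 ± 0.15, adjusted p = 0.0013), and Pfkp (-0.73 ± 0.16), which was lost without either IL-3 library or 10 ng/mL (0.066 to 0.27). Of 25 unfolded protein and amino acid response genes the chaperone genes Calr (-0.87 ± 0.16) and Hspa5 (-0.50 ± 0.13) and the transporter gene Slc3a2 (-0.61 ± 0.14) fell. Calr was lost without IL-3 replicate 1 or 1 ng/mL (0.086 and 0.097), Slc3a2 in 3 fits (0.058 to 0.19) and Hspa5 in all 4 (0.081 to 0.31). Of 35 lysosome genes Glb1, Ids and Lamp1 fell, each lost in at least 3 fits. Of 78 ribosomal protein genes 1 fell, Rps2, at 325, 263, 136 and 101 CPM (-1.33 ± 0.16, adjusted p = 0.00011). The 77 others ranged around a list median of -0.14.

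Markers of other cells and of RNA quality were set beside these changes. Summed macrophage and monocyte markers were 334 and 364 CPM in IL-3 and 253 and 196 CPM with TGF-β, and 2 of 7 tested fell. Apoe alone made 282 and 314 CPM of this sum in IL-3 and 213 and 160 CPM with TGF-β. Clec10a had 21 counts in IL-3 and 0 with TGF-β, at least 5.09-fold lower than IL-3 by the floor of 3 counts (adjusted p = 0.012), lost in 3 fits (0.051 to 0.10). Apoe (-0.69 ± 0.19, adjusted p = 0.050) was lost in all 4 (0.062 to 0.41). Of 7 basophil markers Cyp11a1 fell (-0.60 ± 0.11, adjusted p = 0.0057), lost without IL-3 replicate 2 (0.060) or 10 ng/mL (0.096), and their sum was 4419 and 4988 CPM in IL-3 against 3378 and 3024 CPM. Cyp11a1 alone made 3826 and 4267 CPM of the basophil sum in IL-3 and 2835 and 2530 CPM with TGF-β. None of 12 tested RNA quality and stress genes, 3 eosinophil, 2 lymphocyte or 4 erythroid and platelet markers passed. No neutrophil or fibroblast marker was high enough to test. The 1 ng/mL library had the lowest share of reads assigned to genes, 16.4%, against 20.5% for 10 ng/mL and 23.0% and 19.9% for IL-3. The part of these differences in the results was not tested.

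The largest rises among genes of at least 20 CPM in one group included several with no place in the lists. The adhesion receptor gene Adgra1 had 0 counts in IL-3 and 50.1 and 74.6 CPM with TGF-β, at least 71.1-fold over 3 counts (adjusted p = 5.4e-06). Mrgpra9, of the Mas-related receptor family, stood at 1.56, 6.32, 94.2 and 66.8 CPM (4.43 ± 0.37, adjusted p = 2.2e-06). Adamts5, a protease that cuts aggrecan, stood at 4.66, 8.42, 114 and 108 CPM (4.12 ± 0.28, adjusted p = 1.2e-07). Litaf, an endosomal membrane protein gene, stood at 31.6, 31.6, 205 and 264 CPM (2.88 ± 0.26, adjusted p = 5.4e-06). In these 4 genes both doses were far above both IL-3 libraries. The phospholipase gene Pla2g16 (3.44 ± 0.38) and the leukocyte surface antigen gene Cd52 (3.16 ± 0.46) also rose in every fit. Cux2 (2.53 ± 0.62, adjusted p = 0.032), a homeobox gene, was lost in all 4 fits (0.060 to 0.26), and Thsd4 (2.45 ± 0.43) without 10 ng/mL (0.095).

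The 15 largest falls among genes of at least 20 CPM in one group included Gzmb, Lgals1, Ccl7 and Tnf, given above. Glipr2 held 87 counts in IL-3 and 1 with TGF-β, a pooled ratio of 63.3-fold lower (95% counting interval 11.1 to 2527, adjusted p = 0.00024). Properdin, Cfp, which stabilises the alternative complement convertase, stood at 122, 93.3, 11 and 20.2 CPM (-2.85 ± 0.26, adjusted p = 5.4e-06). The orphan receptor gene Gpr176 stood at 128, 133, 31.4 and 17.1 CPM (-2.49 ± 0.25, adjusted p = 1.3e-05). Gas6, the ligand of the TAM receptor kinases, stood at 61.7, 66.7, 16.1 and 12.4 CPM (-2.17 ± 0.29, adjusted p = 0.00024). Each was low in both TGF-β libraries. Asb2 (-3.27 ± 0.51), a ubiquitin ligase subunit gene, and Lhfp (-2.39 ± 0.33) fell in every fit. The leukotriene B4 receptor gene Ltb4r2 (-2.44 ± 0.47) was lost without 1 ng/mL (0.083), and the calcium-binding S100a6 (-2.40 ± 0.42) without 10 ng/mL (0.18). Serpina3f (-3.25 ± 0.63) was lost without IL-3 replicate 1 (0.092) or 10 ng/mL (0.078). Smpx (-2.58 ± 0.63) and Gcsam (-1.99 ± 0.42) were lost in all but the fit without IL-3 replicate 2 (0.12 to 0.36 and 0.062 to 0.15).

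The second question was whether the change under TGF-β differed without and with SCF. The difference (log2 change without SCF minus log2 change with SCF) was tested for each gene, and the 2 changes share no library. It passed for 33 of 11247 genes (0.293%), 20 positive and 13 negative, while 1029 had an unadjusted p under 0.05. Without IL-3 replicate 1 no gene passed, although the DESeq2 test on all libraries called 22 and limma-voom 33. The other 3 libraries without SCF, left out in turn, gave 9 (IL-3 replicate 2), 3 (1 ng/mL) and 17 (10 ng/mL). Leaving out libraries with SCF gave 9 to 37, among them 11 without SCF replicate 1, and 17 and 9 without the first and second library of the combination at 10 ng/mL. TGF-β changed 1042 genes (9.26%) when added to SCF, and 250 genes passed in both settings, 63.9% of the 391 and 24% of the 1042. Of these, 248 had the same direction and 2, Gpx3 and Raly, opposite ones. The side with SCF had more libraries, and the 4 libraries without SCF had 16.4% to 23.0% of reads assigned to genes against 23.2% to 26.6% with SCF. The part of this in either count was not tested.

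**Figure D4:**
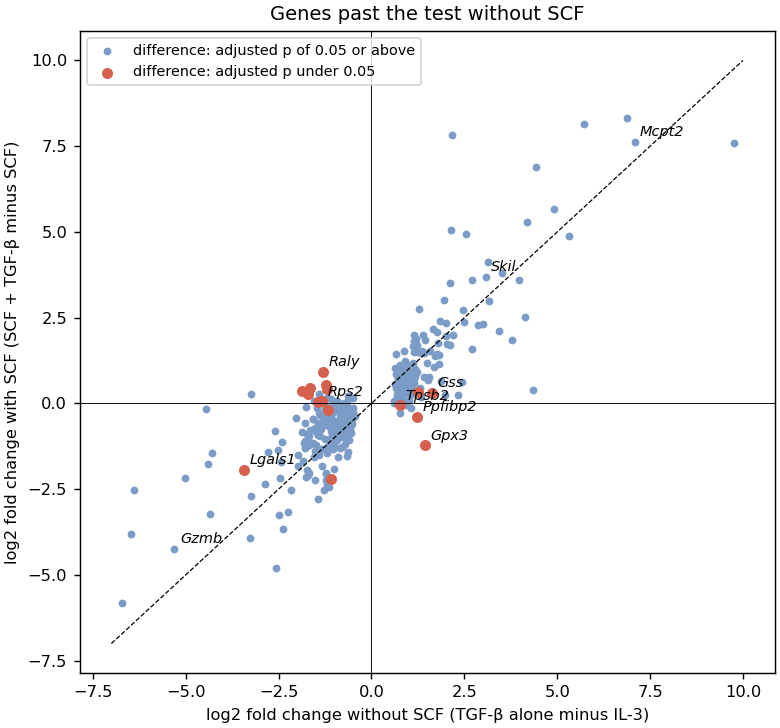
Log2 fold change under TGF-β without SCF (horizontal axis) and with SCF (vertical axis) for the 391 genes past the test without SCF; the dashed line marks equal change. Red points are genes whose difference passed the test, such as Gpx3 (1.45 without and -1.22 with SCF) and Rps2 (-1.33 and 0.06).

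The mucosal genes did not pass this test, which leaves a wide range for those with few counts. Mcpt2 differed by -0.55 ± 0.41 (adjusted p = 0.73): with SCF it went from 21.0 and 21.4 CPM to 3779 and 2874 CPM at 1 ng/mL and 6719 and 4050 CPM at 10 ng/mL. At 1 ng/mL TGF-β without SCF it stood at 604 CPM, below both libraries with SCF at that dose, and at 10 ng/mL without SCF at 3979 CPM, below 4050 and 6719 CPM. Mcpt1 stood at 90.1 and 63.5 CPM with SCF and 1 ng/mL and at 212 and 115 CPM with SCF and 10 ng/mL, against 2.55 and 27.2 CPM without SCF, and its difference was -1.44 ± 5.01 (adjusted p = 0.96). Itgae stood at 28.2, 26.7, 114 and 40.7 CPM in the same 4 libraries with SCF, and its difference was -0.77 ± 1.76 (adjusted p = 0.94). The libraries without SCF thus lay below those with SCF at the same dose for Mcpt1 and Mcpt2, while for Itgae they overlapped at 10 ng/mL. These level differences were not tested. Skil (-0.61 ± 0.36) and Gzmb (-1.07 ± 0.34, adjusted p = 0.29) did not pass either.

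**Figure D5:**
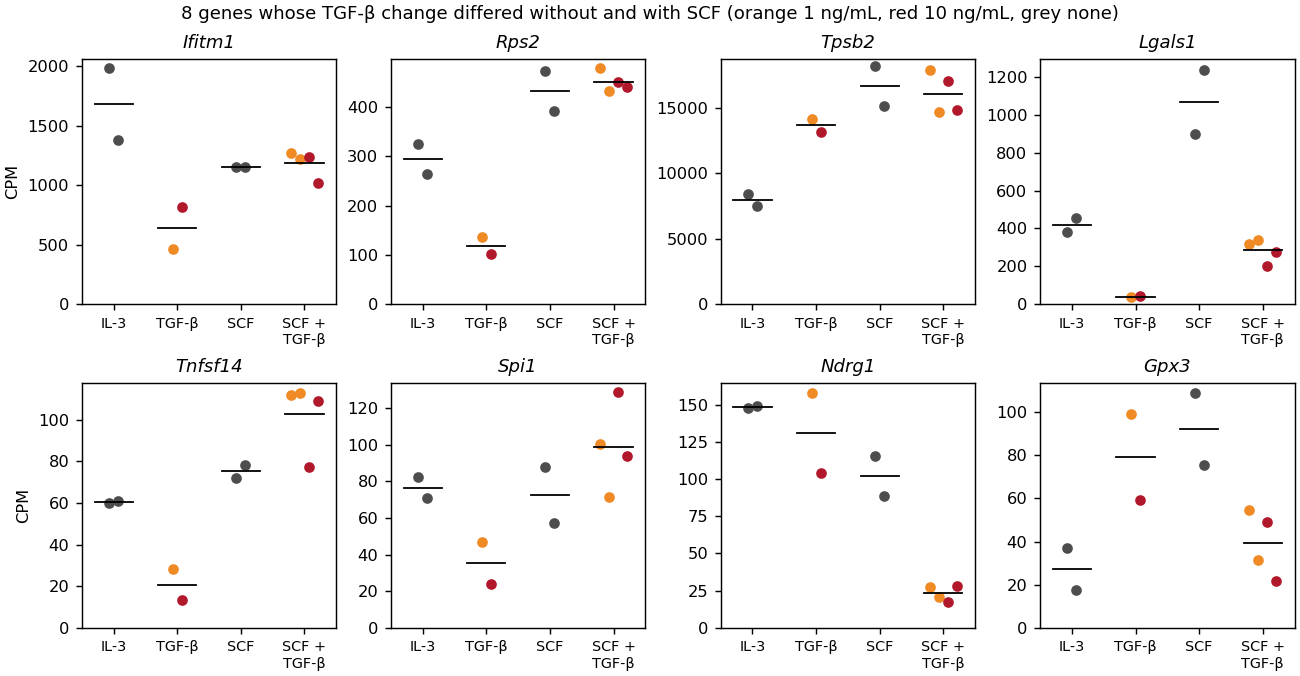
CPM (vertical axes, from 0) of 8 genes past the test of the difference in the libraries of IL-3, TGF-β alone, SCF, and SCF with TGF-β (grey without TGF-β, orange 1 ng/mL, red 10 ng/mL); black bars are group means. Ifitm1, Rps2 and Tnfsf14 were low in TGF-β alone and not with SCF, and Ndrg1 was low with SCF and TGF-β together.

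Several genes with negative differences fell without SCF and did not pass with it. Ifitm1, an interferon-induced membrane protein gene, stood at 1984, 1379, 467 and 816 CPM without SCF (-1.45 ± 0.16, adjusted p = 4.1e-05). With SCF it stood at 1156 and 1155 CPM and at 1019 to 1272 CPM after TGF-β, a difference of -1.49 ± 0.21 (adjusted p = 0.0069). Rps2 had a difference of -1.39 ± 0.21 (adjusted p = 0.0097), with 473 and 392 CPM in SCF and 431 to 478 CPM with both. Tnfsf14, the ligand LIGHT, stood at 72.1 and 78.2 CPM in SCF and 77.3 to 113 CPM with both (difference -2.10 ± 0.29, adjusted p = 0.0069). Atad3a, of the mitochondrial inner membrane, had a difference of -1.98 ± 0.32 (adjusted p = 0.016). Lgals1 fell in both settings, with changes of -3.42 and -1.93 (difference -1.49 ± 0.27, adjusted p = 0.034).

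Among positive differences, some genes fell with SCF and TGF-β and did not pass without SCF. Ndrg1 stood at 148, 149, 158 and 104 CPM without SCF, and went from 116 and 88.9 CPM in SCF to 17.4 to 28.2 CPM with both (difference 1.92 ± 0.27, adjusted p = 0.0069). Asphd2 (2.48 ± 0.42) and Fgd2, a CDC42 exchange factor gene (1.75 ± 0.28), had a like pattern. Asphd2 was lower, at 35.2, 49.1, 47.5 and 31.1 CPM without SCF. It went from 26.5 and 22.7 CPM in SCF to 2.17 to 5.05 CPM with both, on 4 to 12 counts. Other genes rose without SCF. Gpx3, a secreted glutathione peroxidase gene, stood at 36.8, 17.5, 99.3 and 59.1 CPM without SCF and went from 109 and 75.6 CPM in SCF to 21.7 to 54.7 CPM with both (difference 2.67 ± 0.46, adjusted p = 0.021). Its rise without SCF was lost without IL-3 replicate 2 (0.26) or 1 ng/mL (0.29). Tpsb2, which rose 0.78 without SCF, stood at 18210 and 15124 CPM in SCF and 14687 to 17880 CPM with both (difference 0.83 ± 0.17, adjusted p = 0.0497). Without SCF, TGF-β brought Tpsb2 near, but in both libraries below, the level that SCF alone showed.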

How the data were processed

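Libraries were full-length SmartSeq2 cDNA from bulk lysates, made with Nextera XT and sequenced on a NextSeq500 as paired reads without named molecular identifiers, per the labels' protocols. The deposited values were the authors' whole-number read counts per gene. STAR, HTSeq, DESeq2 and GRCm38 (mm10) are named in the submitters' processing notes; tool versions, strand setting and annotation release: not given in the sources used here. Each column was matched to 1 sample by its title. The table had 49671 gene rows; 5 rows that name no gene, which held all reads but the 16.4% to 23% assigned to genes in the 4 libraries, stayed out of totals and tests. Loci and exon lengths came from GENCODE vM21.

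Counts were fitted in R 4.3.3 with edgeR 4.0.16 (TMM, filterByExpr, quasi-likelihood F test), with 1 mean for each of 6 groups over all 10 libraries and 4 residual degrees of freedom. The 2 TGF-β groups held 1 library each, so their spread came from the other groups. Contrasts were the mean of both TGF-β doses minus IL-3, and that change minus the change with SCF. Adjustment was over all 11247 genes. The standard error is the size of the log2 change over the square root of F. RPKM is the mean CPM over kilobases of merged exons. Alternatives were DESeq2 1.42.0 (size factors, Wald test), limma-voom 3.58.1, no filter, 10 CPM in 2 libraries, no predicted rows, both TGF-β libraries as 1 group, a replicate block, the 4 libraries alone, and each library left out. The fit was tested on simulated data.

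Named genes were 19 fixed genes, the 15 largest rises and 15 largest falls called with at least 20 CPM in one group and no overlap, up to 6 called members of each of 37 lists, and the 10 largest differences each way; other genes were named after their values were seen, and some genes that meet the rule are not reported here. The comparison, its lists and the named genes were chosen with earlier results of these data known. Promoters were looked up for 11 genes; those of 5 (Mcpt2, Skil, Itgae, Smad7 and Ldlrad4) had no entry, and the entry of Id3 was read but is not reported. Matched promoters covered 8388 of the tested genes.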

Additional observations from a re-analysis of the deposited data

Results flagged for a closer look

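The change under TGF-β differed without and with SCF, by the test of the difference itself, in 24 named genes. Values are the log2 change without SCF minus that with SCF. None of the 33 genes past this test kept its call when IL-3 replicate 1 was left out, since that fit called 0 genes.

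Positive differences were found for Btg2 (2.67), Gpx3 (2.67), Asphd2 (2.48), Trpm2 (2.31), Dlg2 (2.20), Ndrg1 (1.92), Ntng2 (1.83), Fgd2 (1.75), Gstm1 (1.72), Ppfibp2 (1.62), Gss (1.31), Soat1 (0.91) and Tpsb2 (0.83). Gss, the glutathione synthetase gene, rose without SCF from 101 and 87.0 to 271 and 311 CPM, and stood at 97.1 to 149 CPM in the 6 libraries with SCF. Soat1, which esterifies cholesterol, rose from 168 and 173 to 405 and 407 CPM, against 163 to 218 CPM in the libraries with SCF. Both were chosen after their values were seen. The rise of Ppfibp2 without SCF was lost without IL-3 replicate 1.

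Negative differences were found for Raly (-2.23), Rnf187 (-2.23), Tnfsf14 (-2.10), Atad3a (-1.98), Kif23 (-1.86), Endod1 (-1.82), Lsm4 (-1.76), Spi1 (-1.62), Lgals1 (-1.49), Ifitm1 (-1.49) and Rps2 (-1.39). The RNA-binding protein gene Raly fell without SCF, from 20.2 and 22.5 to 9.33 and 7.77 CPM, and rose with it, from 16.5 and 14.5 to between 22 and 39.1 CPM. The fall of Raly was lost in each of the 4 fits leaving out a library without SCF.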

How the results depend on the processing

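The number of genes called, 391 (153 higher, 238 lower), fell to 225 (84 and 141) with DESeq2 and rose to 601 (245 higher) with no filter; the cause was not tested. DESeq2's size factors in edgeR gave 390, the 10 CPM filter 393, the fit without predicted rows 368, the TGF-β libraries as 1 group 370, the 4 libraries alone 398 and limma-voom 315. All 391 passed again with the replicate block, which called 718 (271 higher, 447 lower) for TGF-β alone and 102 for the difference from SCF. The labels do not say that a number marks a shared batch, and the check on the data was mixed. Deviations of same-numbered libraries correlated at -0.00 to 0.02 between IL-3 and the groups with SCF and at 0.20 to 0.23 among the latter. TGF-β alone has 1 library per dose and gives no such deviation; on the first principal component its libraries stood at -31.9 (replicate 1) and -47.4 (replicate 2), beside -31.3 and -48.6 for IL-3, with dose and number inseparable. Pairing of these libraries was thus not settled. Leaving out 1 library gave 144 to 256 called, 67 to 106 higher and 68 to 150 lower, with fewer samples in the fit; where this left 1 IL-3 library, its spread was taken from the other groups. For the difference, the 33 genes became 0 to 37 when 1 library was left out and 125 with no filter.

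Over the 4 fits leaving out a library, the sign of the change turned for 9 named genes that did not pass on all libraries. The change ran from -1.02 to 0.21 for Itgb7, -0.97 to 0.07 for Gstm1, -0.62 to 0.22 for Fgd2, -0.50 to 0.09 for Ndrg1 and -0.42 to 0.19 for Asphd2, with the highest value without the 10 ng/mL library. It ran from -0.89 to 0.09 for Endod1 and -0.29 to 0.77 for Trpm2, turning without 1 ng/mL, from -0.05 (without IL-3 replicate 1) to 0.11 for Id2, which was -0.01 without 10 ng/mL, and from -0.04 (without IL-3 replicate 2) to 0.20 for Dlg2. Without IL-3 replicate 2, Asphd2 stood at 0.13 and Fgd2 at 0.00. Of 140 named genes past the test, those chosen after their values were seen included, 61 passed in all 4 fits leaving out a library; 28 did not pass with DESeq2 and 17 with limma-voom. With DESeq2 104 of the 140 named genes passed. Those neither among the 104 nor among the 28 had no adjusted p there. They were Itgax, Cux2, Glipr2, Asb2, Ltb4r2, C5ar1, Adamts1 and Bcl6. At these depths genes under about 2 CPM rest on 3 counts or fewer in a library.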

Other observations

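The genes in these paragraphs were chosen after their values were seen. The gene pair Ctla2a and Ctla2b, which encode cysteine protease inhibitors, rose in both TGF-β libraries: Ctla2a stood at 2805, 3331, 7860 and 6613 CPM (1.23 ± 0.14, edgeR adjusted p = 7.9e-05) and Ctla2b at 68.9, 87.7, 278 and 232 CPM (1.70 ± 0.17). They are close paralogs whose reads may not be separable. The channel gene Kcnn4 (1.49 ± 0.18), the kinase gene Jak1 (0.90 ± 0.13) and the retinaldehyde reductase gene Dhrs3 (2.01 ± 0.24) rose in each fit leaving out a library. The receptor gene Cx3cr1 stood at 358, 394, 712 and 773 CPM (0.98 ± 0.24, adjusted p = 0.028) and was lost in all 4 fits (0.062 to 0.21). Ikzf4 (1.14 ± 0.21) and Il16 (1.20 ± 0.27) rose and were lost without IL-3 replicate 1 or 1 ng/mL (0.057 to 0.24).

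Among genes that fell, the matrix glycoprotein gene Emilin2 stood at 489, 429, 180 and 113 CPM (-1.69 ± 0.16, adjusted p = 8.7e-06) and the channel gene Trpv2 at 164, 157, 45.8 and 49.0 CPM (-1.76 ± 0.18). The adaptor gene Sla (-1.14 ± 0.13), the phosphatase gene Ptpn2 (-1.20 ± 0.14), the annexin gene Anxa5 (-1.39 ± 0.19), the serpin gene Serpina3g (-1.67 ± 0.28), the ganglioside activator gene Gm2a (-1.15 ± 0.15) and the sulfate donor synthase gene Papss2 (-1.07 ± 0.15) fell in each fit. Among actin-severing proteins of the gelsolin family, Avil (-1.05 ± 0.15), Scin (-0.81 ± 0.14) and Gsn (-0.53 ± 0.13) fell. Scin was lost without 1 ng/mL (0.051) and Gsn in all 4 fits (0.11 to 0.19). The cytochrome genes Cyp4a12a (-1.14 ± 0.25) and Cyp4a12b (-1.51 ± 0.22), close paralogs, fell too, the first lost without IL-3 replicate 2 (0.16) or 10 ng/mL (0.26). Ifitm2 (-0.76 ± 0.18) and Ifitm3 (-1.44 ± 0.29), relatives of Ifitm1, fell and were lost in 3 and 2 of the 4 fits (0.052 to 0.17). The decoy receptor gene Il1r2 (-1.97 ± 0.33) was lost without 10 ng/mL (0.12), and Il2ra (-1.23 ± 0.27) without IL-3 replicate 1 or 10 ng/mL (0.16 each).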
